A study of Mus musculus with 6 samples.

Results

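The microRNA genes with a Mir or Mirlet7 symbol were described in RNA sequencing values of peritoneal neutrophils from cGAS-/- mice. The table held 856 such genes, and the 78 of them that exceeded 0 in 1 or more of the 6 samples are the members described here, and host transcripts whose symbols end in hg were left out of the rule. The whole table held 38739 genes, of which 23049 had a value above 0 and were tested. Because the values themselves chose the members, the number of zeros per group is given as a description with no test, and every fit was made over the whole table.

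MicroRNAs are short RNAs that are cut from a hairpin, first in the nucleus by Drosha with Dgcr8 and then in the cytoplasm by Dicer1, and they guide Argonaute proteins to messenger RNAs that pair with their seed, the bases near the 5′ end. In myeloid cells, miR-146a is known as a brake on Toll-like receptor signalling, miR-142 as a microRNA of the blood lineages, and miR-23a, miR-27a and miR-24 as products of 1 primary transcript. An mRNA library with fragmentation does not select RNAs of mature microRNA size, so a value here stands for reads assigned to the hairpin, whether from its precursor or from the transcript that carries it, and not for the mature microRNA.

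The neutrophils came from C57B/L6 mice with a cGAS knockout in both groups, with no wild-type group among the samples, and were incubated for 2 h either without a stimulus (media control, called untreated, n = 3) or with 500 ng/mL of LPS from E. coli 026:B6 (n = 3), a dose taken from the labels, since the study's methods state a lower one for the sequencing. The methods give males of 8 weeks as the mice of the study and lavage after thioglycollate injection as the source of the cells. The labels do not say whether the 3 samples of a group came from separate mice or cultures, so p values measure only the spread between these samples, which may be technical. Values were relative abundances in TPM, in which a gene's reads are divided by its length and the depth, with a further scaling by the authors, so that the number of reads is unknown. Of 12 listed neutrophil markers, 10 were in the table and all 10 were above 0 in every sample. Their sums were 9658.7 to 28368.5 in untreated and 16029.6 to 54533.5 in LPS samples. Summed B cell markers reached 281 to 1086.7 in untreated and 262 to 798 in LPS samples, and summed macrophage markers 1065 to 1533 and 775 to 1084.7. Summed erythroid markers varied most in proportion, from 21.5 to 5629.3 in untreated and from 165 to 4651.3 in LPS samples, and their part in the results was not tested. Cgas itself was listed between 0.0286 and 0.307 in the 6 samples. Fewer cells of a type and less RNA per cell cannot be told apart in such bulk samples.

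The mature sequences below belong to the members that the comparison turned on, with the seed, bases 2 to 8, in capitals. The first 5 genes were called lower after LPS, 4 of them below a length limit described next, miR-6236 and miR-142b came from the only genes above 0 in all 6 samples, and miR-7a, miR-3473g and let-7g from genes above 0 in LPS samples. The sequences are from RefSeq (table of GRCm38.p6), where 74 of the 78 members matched with 114 mature sequences. Mir1957a, Mir3473h, Mir466f-1 and Mir669d had no entry.
mmu-miR-5620-5p: aCGAGGCAggggcuuugacugug
mmu-miR-146a-5p: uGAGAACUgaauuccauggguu
mmu-miR-7678-3p: uUUCCUUAcuuucucuuguagc
mmu-miR-7682-5p: aGGCACGAcucuugccacagaaac
mmu-miR-3473f: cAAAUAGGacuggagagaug
mmu-miR-6236: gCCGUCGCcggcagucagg
mmu-miR-142b: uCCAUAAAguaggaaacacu
mmu-miR-7a-5p: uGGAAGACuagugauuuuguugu
mmu-miR-3473g: cAAAAGUGaggcuggggaga
mmu-let-7g-5p: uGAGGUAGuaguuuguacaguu

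The 114 mature sequences listed carried 114 different seeds, so none could be grouped by a seed within this table, which lists 1 arm alone for some hairpins. miR-3473f and miR-3473g, whose names differ by 1 letter, have unlike seeds in this table.

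In every LPS sample, short genes of any type were listed at 0, which bears on each result that follows. Among the 36582 genes with an annotated transcript length, the shortest gene above 0 was 38 bases long in each of the 3 untreated samples, but 81, 90 and 90 bases long in LPS samples 1, 2 and 3. Of the 943 genes shorter than 81 bases, 59, 59 and 72 were above 0 in untreated samples 1, 2 and 3 and 0 in each LPS sample. The 111 short genes above 0 in at least 1 untreated sample included 74 that are not members, namely 44 other microRNA genes, 12 snoRNA genes, 2 snRNA genes, and 9 and 7 joining segments of immunoglobulin and T cell receptor genes. Hairpins of the members ranged from 51 to 139 bases with a median of 83, and 37 of the 77 members with a position in the annotation (GENCODE M39, GRCm39) were shorter than 81 bases. For these 37, the LPS treatment and this length limit of the LPS samples cannot be told apart. How the limit arose was not tested.

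**Figure D1:**
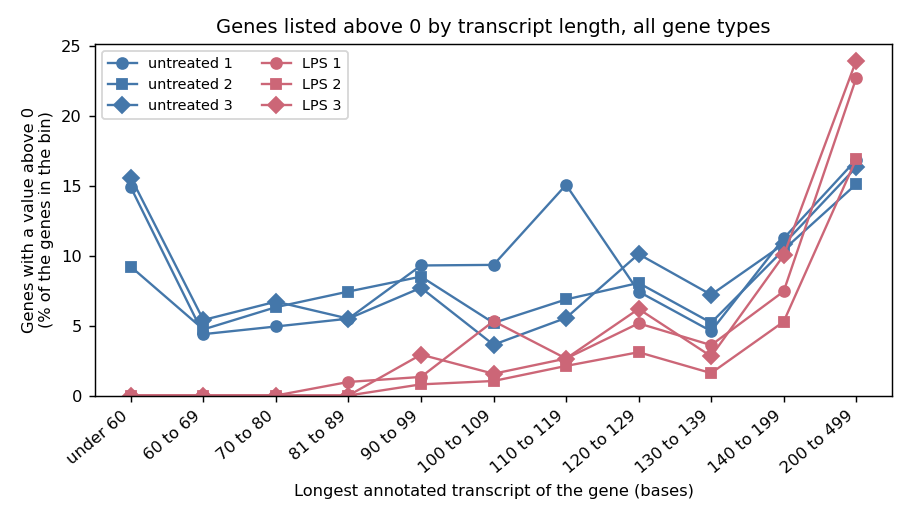
Percentage of genes of any type with a value above 0 (y axis) by the length of the longest annotated transcript in bases (x axis), with 1 line per sample, untreated in blue and LPS in red. Below 81 bases, the 3 LPS lines lie at 0 while the untreated lines do not. From 200 to 499 bases the 3 LPS lines lie above all untreated lines, LPS sample 2 only just (785 genes beside 783 in untreated sample 1).

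Above 81 bases the shares of genes at 0 were still unequal between the groups. Of all genes from 100 to 139 bases long and above 0 in some sample, 61.7% of 363 were at 0 in all LPS samples and 10.7% at 0 in all untreated samples, and without microRNA genes these shares were 54.5% and 15.5% of 220. From 200 to 499 bases the direction was the other, with 15% at 0 in all LPS and 29.2% at 0 in all untreated samples. Other classes of short RNA genes can be set beside the members. Of the microRNA genes without a Mir name that were above 0, 77.0% of 239 were at 0 in all LPS samples, beside 54.1% of 109 snoRNA genes and 38.0% of 129 snRNA genes, whereas among the members the share was 89.7%.

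Far fewer members were above 0 after LPS than without it. In untreated samples 1, 2 and 3, 32, 34 and 31 members were above 0. In LPS samples 1, 2 and 3 it was 5 in each, so the groups did not overlap. Of the untreated counts, 14, 16 and 18 were hairpins under the length limit, which were at 0 in every LPS sample. Among the 40 members at or over that limit, the counts were 18, 18 and 12 in untreated and 5, 5 and 5 in LPS samples. As many as 70 of the 78 members (89.7%, as above) were at 0 in all LPS samples, where 7.43% of all genes tested were, and 2 members (2.56%) were at 0 in all untreated samples, where 14.5% of all genes tested were. The other 6 members were above 0 in both groups, namely Mir6236, Mir142b, Mir7-1, Mir466i, Mir467f and Mir697. Each of these has a hairpin of at least 100 bases. The share of 7.43% covers genes of any length. Of the 25 members of at least 100 bases, 72.0% were at 0 in all LPS samples. Among all genes from 100 to under 140 bases and above 0 in some sample it was 61.7%, or 54.5% without microRNA genes. Members were also rarely seen more than once, as 60 of the 78 were above 0 in a single sample, untreated for 59 of them, at values of 0.979 to 116 with a median of 11.2. Many values of members stood in whole ratios to each other, as given below, so such single values may stand for few reads, which was not tested.

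**Figure D2:**
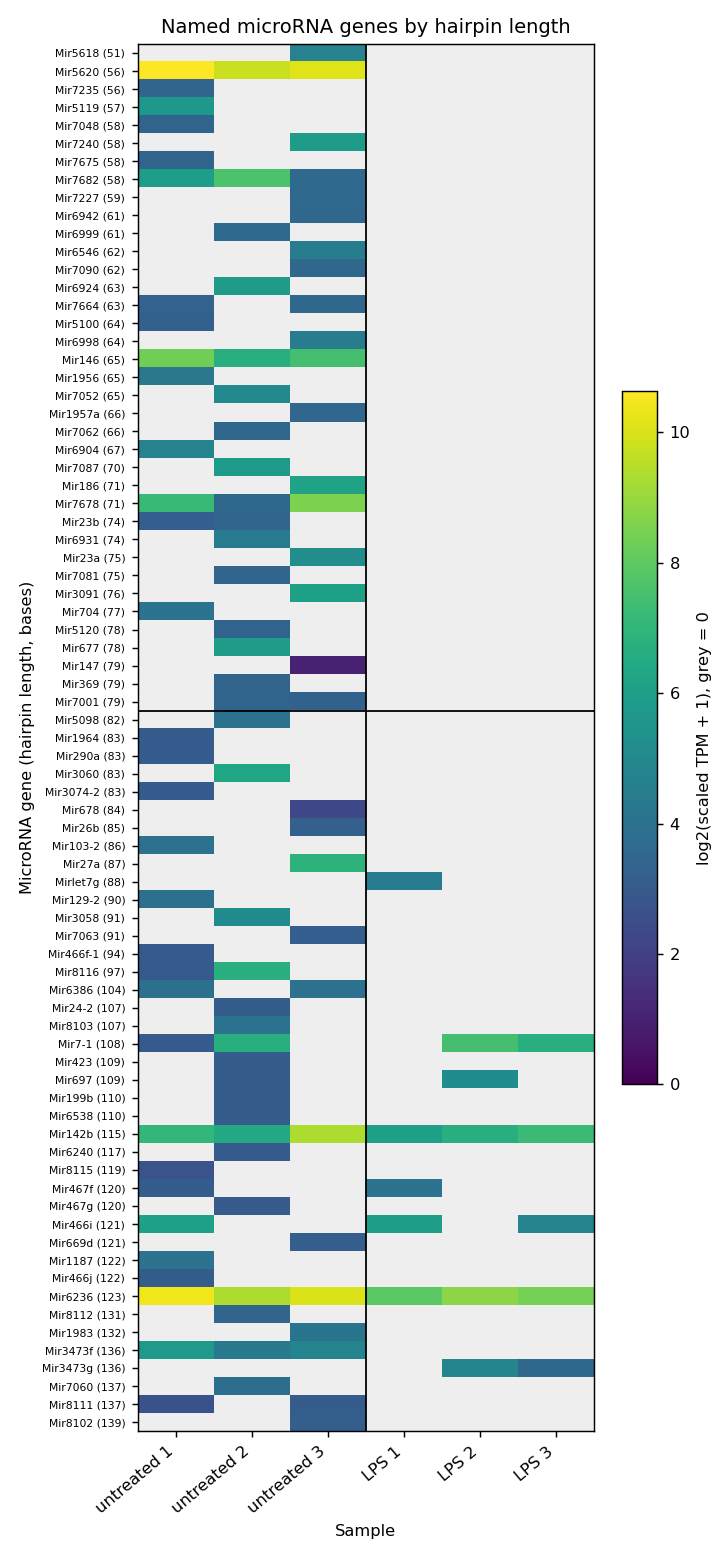
Values of the 77 members with a known hairpin length as log2(scaled TPM + 1) in colour, with grey for 0, and with 1 row per gene sorted from the shortest hairpin (51 bases) to the longest (139) and 1 column per sample. The horizontal line marks 81 bases, and no member above that line has a value above 0 in any LPS sample.

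The members' summed value was 4009.8, 2635.9 and 3958.6 scaled TPM in untreated samples 1, 2 and 3 and 406, 778 and 630 in LPS samples 1, 2 and 3, or 0.562%, 0.400% and 0.656% against 0.0996%, 0.167% and 0.156% of the table. All 3 LPS sums lay below all 3 untreated sums. The sums rested on few genes, since the 2 largest members of a sample held 54.8% to 79.0% of its sum. As a mean over the 78 members of log2(value + 1), the level was 1.96 ± 0.10 in untreated and 0.39 ± 0.03 in LPS samples (SD, n = 3), a difference of -1.56 that was -0.88 over the 25 members with hairpins of at least 100 bases. This difference is a description, as 70 of the 78 members were chosen by values of untreated samples alone.

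After LPS, 5 members were called lower and none higher by the limits used here (in limma, p under 0.01 before adjustment together with a log2 fold change beyond 2), which is 6.41% of members called lower, beside 1.31% of all genes tested called lower and 1.69% called higher. At an unadjusted p under 0.05, 6 members were lower and 0 higher, beside 6.66% and 10.3% of all genes tested, and at an adjusted p under 0.05, 3 were lower and 0 higher, beside 0.946% and 0.894% of all genes tested. The median log2 fold change of the members was -1.25 beside 0.01 over all genes tested, and it was negative for 92.3% of members beside 47.1% of all genes. For the 70 members at 0 in all LPS samples the fold change could only be negative, so this median and share are descriptions. Among the 5 members called lower, 4 (Mir5620, Mir146, Mir7678 and Mir7682) have hairpins under 81 bases, a length at which every gene was at 0 in the LPS samples. For these calls treatment and length cannot be told apart. Mir3473f was the single one called among the 25 members of at least 100 bases, which had a median log2 fold change of -1.04, with 72.0% of them at 0 in all LPS samples. All LPS samples lay below all untreated samples for 6 members (7.69%, beside 9.75% of all genes tested) and above them for none (13.1% of all genes tested). The 5 calls remained in all 15 refits. However, all 5 were at 0 in every LPS sample and became members by untreated values alone. Leaving out an LPS sample thus could not change their fold change, and the refits do not bear on the length limit. Without untreated replicate 2 the number called lower was 8, as Mir6386, Mir7664 and Mir8111 were added, and Mir3473g was called higher without LPS replicate 1. These 4 genes were named after their values were seen.

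Mir5620 had the largest value of any member in a single sample. It reached 1588.7, 875 and 1116 scaled TPM in untreated samples 1, 2 and 3 and was listed at 0 in all 3 LPS samples. Its hairpin (56 bases, chr7:7301890-7301945, + strand, GRCm39) lies in an exon of the long noncoding RNA gene Gm72987 and, on the opposite strand, in an exon of Clcn4, a chloride and proton exchanger. The fitted log2 difference was -10.18 ± 0.32 (SE, limma adjusted p = 0.00039), and it depends on the constant added before the logarithm, with -13.5 to -7.86 and adjusted p from 0.00011 to 0.035 over the alternatives. With 56 bases, the hairpin is among those for which treatment and length limit cannot be told apart. Clcn4 was at 0.202, 0.151 and 0.226 in untreated and 1.09, 0.838 and 1.27 in LPS samples (limma log2 difference 0.79 ± 0.23, adjusted p = 0.15). The libraries were stranded, but the strand setting of the quantification is not given in the sources used here, so reads of this hairpin and of Clcn4 cannot be told apart by strand.

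Mir146, the gene of miR-146a, was at 321, 100 and 178 in untreated samples 1, 2 and 3 and at 0 in all LPS samples. Every untreated value was thus above every LPS value, and the fitted log2 difference was -7.49 ± 0.47 (SE, limma adjusted p = 0.0041), from -10.8 to -5.2 over the alternatives with adjusted p from 0.00055 to 0.057. The hairpin has 65 bases (chr11:43265224-43265288, - strand) and lies in an exon of the gene Gm73818, so with its length it is among those for which treatment and length limit cannot be told apart.

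Mir7678 was at 142, 10.6 and 369 in untreated samples and at 0 in all LPS samples, with the untreated values spread widely (limma log2 difference -6.41 ± 1.23 SE, adjusted p = 0.065, and from -9.69 to -4.25 over the alternatives). Its hairpin (71 bases, chr2:164196233-164196303, - strand) shares 1 base with an exon of Slpi and otherwise lies in an intron. Slpi, the secretory leukocyte protease inhibitor, which blocks neutrophil elastase, rose over the same locus from 459, 76.0 and 504 to 2916.9, 4065.2 and 2530.1 (log2 difference 3.57 ± 0.77, adjusted p = 0.082). As the hairpin is under 81 bases long, its zeros after LPS give no comparison with the host.

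Mir7682 was at 58.7, 198 and 11.6 in untreated samples and at 0 in all LPS samples (limma log2 difference -5.73 ± 0.97 SE, adjusted p = 0.051, and from -9.01 to -3.58 over the alternatives). Its 58 bases (chr1:151318144-151318201, + strand) lie wholly in an exon of Trmt1l, a tRNA methyltransferase-like gene. Trmt1l stayed above 0 throughout, with 11.3, 17.7 and 11.8 in untreated and 4.23, 6.20 and 4.93 in LPS samples (log2 difference -1.24 ± 0.32, adjusted p = 0.11, not called). The hairpin, under 81 bases as well, gives no comparison with its host.

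Mir3473f, the call with a hairpin above the length limit (136 bases, chr1:106474226-106474361, - strand), was at 51.2, 18.5 and 26.8 in untreated samples and at 0 in all LPS samples. The fitted log2 difference was -4.93 ± 0.43 (SE, limma adjusted p = 0.011), and over the alternatives it ranged from -8.21 with a pseudocount of 0.1 to -2.8 with 5, with adjusted p from 0.0024 to 0.11. It lies 3098 bases from the nearest exon in an intron of Bcl2, an inhibitor of apoptosis, whose own values of 2.37, 1.23 and 1.24 in untreated and 5.19, 1.40 and 4.07 in LPS samples overlapped. Stretches similar to its hairpin (at least 85% identity over at least 50 bases) occur 68277 times elsewhere in the genome, so where its reads came from is uncertain. Similar stretches were found for 23 members and over 100 of them for 10.

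**Figure D3:**
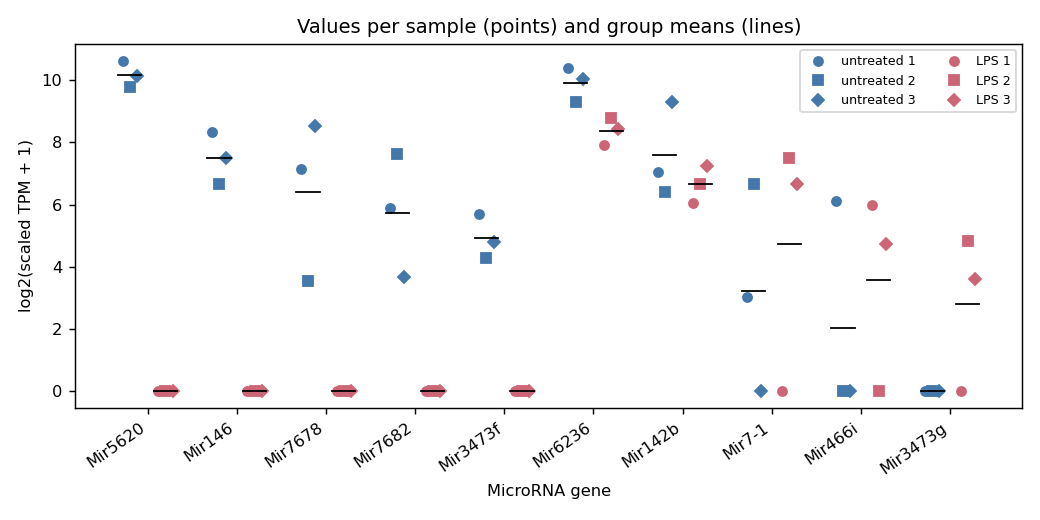
Values of 10 members as log2(scaled TPM + 1) on the y axis, with 1 point per sample (untreated in blue, LPS in red) and a line at the mean of each group (n = 3). The 5 genes on the left are at 0 in all LPS samples, Mir6236 has all LPS points below the untreated points, and the groups overlap for Mir142b, Mir7-1, Mir466i and Mir3473g.

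Of the 6 members above 0 in both groups, Mir6236 and Mir142b had no zero in any sample, and the other 4 had at least 1. Mir6236, with the largest mean of any member, was at 1356, 634 and 1054.3 in untreated and at 243, 437 and 342 in LPS samples. The means were 1014.6 ± 363 and 340 ± 97 (SD, n = 3), and all LPS values lay below the untreated ones. However, the limma log2 difference of -1.55 ± 0.41 (SE, adjusted p = 0.12) was within the fold limit and Mir6236 was not called. Its hairpin of 123 bases (chr9:110110355-110110477, + strand) overlaps no gene on the same strand and lies opposite to an intron of Gm39429. In the genome, 3 stretches similar to this hairpin occur elsewhere, and where its reads came from was not tested.

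Mir142b was the other member above 0 in all samples, at 130, 83.5 and 632 in untreated and 65.3, 101 and 150 in LPS samples. The groups overlapped and the single high value was in untreated sample 3 (limma log2 difference -0.93 ± 0.80 SE, adjusted p = 0.55). This hairpin (115 bases, chr11:87647667-87647781, - strand) lies opposite to an exon of Mir142hg, the host transcript of Mir142. All 20 bases of miR-142b are the reverse complement of miR-142a-3p, the product of the other strand, as the pair shows.
mmu-miR-142b: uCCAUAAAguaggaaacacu
mmu-miR-142a-3p: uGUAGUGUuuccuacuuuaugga

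Mir142, the gene of miR-142a with a hairpin of 64 bases, was listed at 0 in all 6 samples, while Mir142hg was at 338, 151 and 157 in untreated and 128, 164 and 130 in LPS samples (limma log2 difference -0.52, adjusted p = 0.55). Reads of Mir142b and Mir142hg cannot be told apart without strand.

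Mir7-1, from which miR-7a is made, was at 7.08, 100 and 0 in untreated and at 0, 178 and 101 in LPS samples. Both groups thus held a zero and a value near or above 100, and the limma log2 difference of 1.5 ± 2.49 (SE, adjusted p = 0.76) was smaller than its error. Its 108 bases lie in an intron of Hnrnpk, an RNA-binding protein gene at 7.91, 43.9 and 12.5 in untreated and 13.6, 17.1 and 13.9 in LPS samples. Mir466i was at 67.6, 0 and 0 in untreated and 61.9, 0 and 25.8 in LPS samples, and 10874 stretches similar to its hairpin occur elsewhere. Mir467f (7.85 in untreated sample 1, 15.6 in LPS sample 1) and Mir697 (7.7 in untreated sample 2, 35.4 in LPS sample 2) were above 0 in 1 sample per group, and are named because of that pattern.

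The 2 members at 0 in all untreated samples were Mir3473g and Mirlet7g. Mir3473g (136 bases, in an intron of Sppl2a, an intramembrane protease of immune cells) was at 0, 27.3 and 11.1 in LPS samples 1, 2 and 3 (limma log2 difference 2.81 ± 1.20 SE, adjusted p = 0.32). Its host Sppl2a was at 70.2, 4.23 and 2.92 in untreated and 35.6, 52.2 and 54.9 in LPS samples, so the groups overlapped. Mirlet7g (88 bases, in an intron of Wdr82, a subunit of a histone methyltransferase complex) was at 20.2 in LPS sample 1 and at 0 in the other 5 samples. Its host was lower in all LPS samples, at 6.24, 6.23 and 5.76 beside 17.5, 13.2 and 19.5 (log2 difference -1.31 ± 0.29, adjusted p = 0.083, not called).

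Lists of microRNAs with known roles were mostly at 0 in both groups, as were all 856 named microRNA genes, of which 9.11% were above 0 in some sample. Of 6 let-7 genes in the table, Mirlet7g alone was above 0 in any sample. Of 18 LPS-responsive microRNA genes in the table, 10 of them with hairpins under 81 bases, 3 were above 0 (Mir146, Mir147 and Mir23b). All 3 have hairpins under 81 bases (65, 79 and 74). They were at 0 in every LPS sample, as was every gene of such a length, beside 89.7% of all members. Of these 3, 1 was called lower, beside 1.31% of all genes tested. For all 3, treatment and length cannot be told apart. Mir147 was at 0.979 in untreated sample 3, the lowest value among members above 0 in a single sample, and Mir23b at 7.99 and 10.2 in untreated samples 1 and 2. Mir21a, Mir132 and Mir212, microRNA genes known for induction by LPS, were at 0 in all 6 samples, and are named as examples of list genes that are not members.

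Of 36 neutrophil and haematopoietic microRNA genes in the table, 15 of them with hairpins under 81 bases, 6 were above 0, and 5 of those were at 0 in all LPS samples. None was called in either direction, beside 1.31% of all genes tested called lower and 1.69% called higher. Besides Mir142b the 6 genes above 0 were Mir23a, Mir27a, Mir24-2, Mir103-2 and Mir26b, each of these above 0 in a single untreated sample. The cluster of Mir23a, Mir27a and Mir24-2 on chromosome 8 spans 84935147 to 84935550. In untreated sample 3, Mir23a was at 37.2 and Mir27a at 116, whereas Mir24-2 was at 7.72 in untreated sample 2 and at 0 in sample 3, so the 3 hairpins were never above 0 together. Mir103-2 was at 14.9 in untreated sample 1 and Mir26b at 8.45 in untreated sample 3. The cluster's mature products, shown for their role in granulocytes, have different seeds, but those of miR-23a-3p and miR-27a-3p differ at a single base.
mmu-miR-23a-3p: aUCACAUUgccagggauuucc
mmu-miR-27a-3p: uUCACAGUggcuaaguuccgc
mmu-miR-24-3p: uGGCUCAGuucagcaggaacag

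The first 18 of the 21 bases of miR-23a-3p, its seed included, also occur in the hairpin of Mir23b on chromosome 13. For Mir23b the table lists the 5p arm alone, but these 2 hairpins share that seed sequence. The search for similar stretches found 0 elsewhere in the genome for Mir23a and 0 for Mir23b. The 2 genes were never above 0 in the same sample, and whether reads were split between them was not tested. Mir8116, among the 10 largest by mean, was at 7.05 and 107 in untreated samples 1 and 2 and at 0 in the other samples. It lies in an intron of Ache, the acetylcholinesterase gene, whose values were at most 1.37 in any sample.

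Many values of members stood in whole ratios to each other. Of 20 pairs of members with the same hairpin length that were above 0 in the same sample, 18 had a ratio within 0.1% of a whole number, and 7 of these had equal values. In untreated sample 1, Mir5620 was 158 times Mir7235 (both 56 bases), Mir146 was 18 times Mir1956 (both 65 bases) and Mir7682 was 6 times Mir7048 (both 58 bases). In untreated sample 2, Mir146 was 3 times Mir7052. The 2 exceptions, Mir7001 over Mir147 at 9.168 and Mir7678 over Mir186 at 5.429, were both in untreated sample 3. Mir1964, Mir290a and Mir3074-2 (all 83 bases) were each at 7.55 in untreated sample 1. The members in this paragraph other than Mir5620, Mir146, Mir7682, Mir7678 and Mir147 were named for these ratios after their values were seen.

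The members' place in the genome was close to that of the named microRNA genes at 0. Of the 77 members with a position, 22.1% lay wholly in an exon of a gene on the same strand, 10.4% partly in one, 46.8% in an intron and 20.8% in no gene, beside 21.7%, 8.87%, 47.8% and 21.6% of 778 genes at 0 in all samples. Of 36 members in introns, 10 lay at most 10 bases from an exon and 13 over 1000 bases from one, beside 104 and 189 of 372 genes at 0. The levels of the host transcripts differed more. The 56 host transcripts of members in the table had a median level of 8.17 scaled TPM, and 46.4% were over 10, beside 0.992 and 14.1% for 432 hosts of genes at 0. These shares are descriptions, as the rule picked members by their own values.

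Most host transcripts of hairpins at 0 after LPS were themselves above 0. Of 55 host transcripts tested, 2 rose (Slpi and AA467197) and 2 fell (Dnmt1 and Tbkbp1) by the same limits, beside 1.69% and 1.31% of all genes tested. All LPS samples lay above the untreated samples for 8 hosts and below them for 11, beside 13.1% and 9.75% of all genes tested, and their median log2 fold change was 0.01, as over all genes tested. Of the 52 members at 0 in all LPS samples with a tested host, 51 had a host above 0 in all 3 LPS samples and 26 had one with a higher mean log2 level after LPS. These 52 include hairpins under 81 bases, whose zeros after LPS give no comparison with a host. AA467197, whose exon holds Mir147 and which encodes a small protein known to be induced in inflammation, rose from 6.54, 35 and 17.7 to 92.1, 143 and 114 (limma log2 difference 2.75 ± 0.60 SE, adjusted p = 0.084). The hairpin of Mir147 has 79 bases, so its zeros after LPS give no comparison with AA467197. Dnmt1, the maintenance DNA methyltransferase and host of Mir7081, fell from 18.1 ± 0.459 to 2.86 ± 0.839 (SD, n = 3, log2 difference -2.33, adjusted p = 0.027). Tbkbp1, a binding protein of the kinase TBK1 and host of Mir7235, fell from 9.74 ± 0.42 to 1.18 ± 0.165 (log2 difference -2.31, adjusted p = 0.022). Dnmt1 and Tbkbp1 were named because they were called.

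Mir22hg, the host transcript of Mir22, had the lowest p of the 9 hg transcripts in the table, and was named for that. It was at 155, 115 and 182 in untreated and at 590, 665 and 524 in LPS samples (limma log2 difference 1.99 ± 0.30 SE, adjusted p = 0.039), just under the fold limit, and was not called. Mir22, with a hairpin of 95 bases, was at 0 in all 6 samples.

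**Figure D4:**
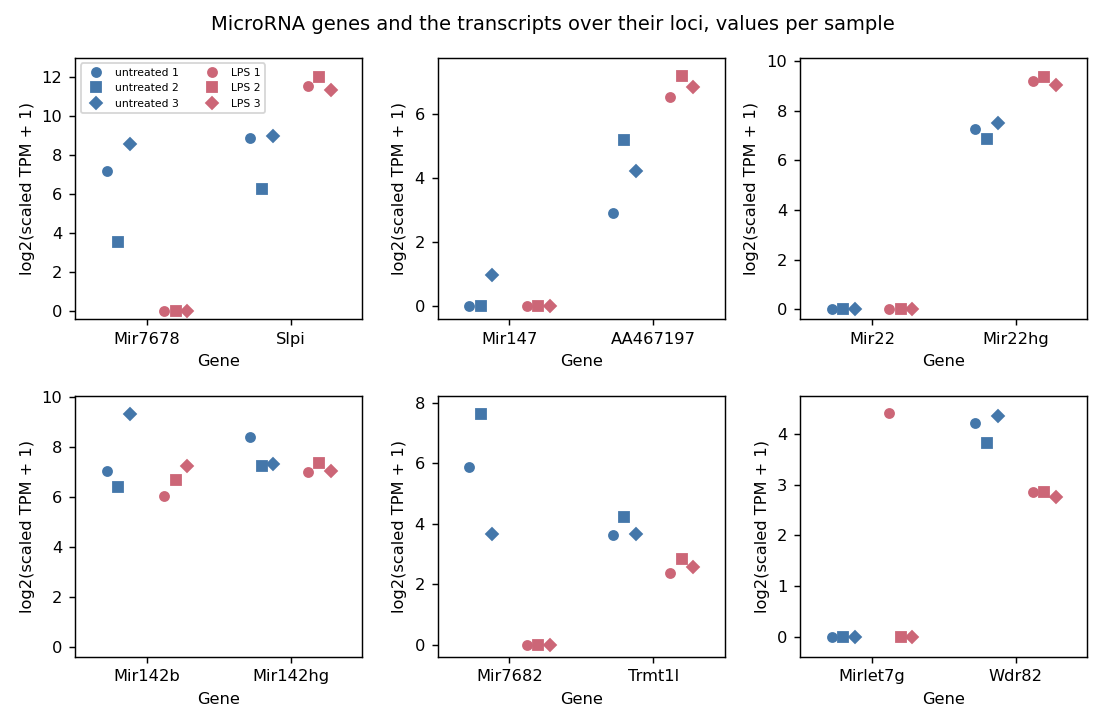
Values of 6 microRNA genes and of the transcripts over their loci as log2(scaled TPM + 1) on the y axis, with 1 panel per pair and 1 point per sample (untreated in blue, LPS in red, n = 3 each). Slpi, AA467197 and Mir22hg have all LPS points above the untreated points. Mir7678 and Mir147 are at 0 in all LPS samples, with Mir147 above 0 in a single untreated sample (0.979), and Mir22 is at 0 in all 6 samples. The hairpins of Mir7678, Mir147 and Mir7682 are under 81 bases, so their LPS zeros give no comparison with the transcripts.

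Of 43 listed symbols for genes of microRNA processing, loading and turnover, some of them synonyms, 24 were in the table and tested. Drosha, Dgcr8 and Ago2 were not among these 24. Of the 24, 1 was called higher and none lower, beside 1.69% and 1.31% of all genes tested, and their median log2 fold change was 0.08. At an unadjusted p under 0.05, 3 were higher and 3 lower, beside 10.3% and 6.66% of all genes tested. Zc3h12a, which encodes Regnase-1, a nuclease that cuts inflammatory messenger RNAs and the loops of some microRNA precursors, rose from 14.7, 37.8 and 40.1 to 190, 295 and 245 (limma log2 difference 3.04 ± 0.46 SE, adjusted p = 0.04). For this gene the 2 groups did not overlap.

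Other biogenesis genes differed less than the limits. Ddx5, a helicase that assists Drosha, was at 94.0 ± 31.2 in untreated and 169 ± 14.3 in LPS samples (SD, n = 3, limma log2 difference 0.88, adjusted p = 0.24), and Hnrnpa2b1, an RNA-binding protein of precursor processing, at 34.5 ± 4.77 and 42.5 ± 9.27 (0.28, adjusted p = 0.62). Dicer1, at 1.77, 0.599 and 1.95 in untreated and 1.60, 0.645 and 1.35 in LPS samples, had a log2 difference of -0.13 ± 0.39 (adjusted p = 0.88). Among genes of turnover and tailing, the uridyl transferase Tut7 was at 41.3 ± 10.7 and 17.6 ± 5.2 (-1.19, adjusted p = 0.16) and the exonuclease Xrn1 at 3.21 ± 0.388 and 0.833 ± 0.243 (-1.20, adjusted p = 0.10), both with all LPS samples below all untreated samples. The Argonaute gene Ago4, at 3.34 ± 0.889 and 1.10 ± 0.386 (-1.04, adjusted p = 0.18), had the same order. Dicer1, Tut7, Xrn1 and Ago4 were named after their values were seen.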

How the data were processed

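The deposited values were treated as TPM. Per the study's methods, the authors mapped reads against GRCm39 by STAR, used Kallisto for transcript abundance and edgeR for normalization. The table is named as normalized counts, but its values fit a mean TPM of each gene's transcripts after division by a constant of the sample. mm10 and fastp also stand in the submitters' processing notes, and versions, annotation release and strand setting are not given in the sources used here. Read depth is unknown, so precision is measured by replicate spread alone (n = 3 per group).

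Samples were grouped by title and treatment label. All 23049 genes above 0 in at least 1 sample were fitted with limma 3.58.1 in R 4.3.3 on log2(value + 1) (lmFit, eBayes with trend, two-sided, no covariates), with Benjamini-Hochberg adjustment over all of them. A call needed p under 0.01 before adjustment and an absolute log2 fold change over 2. The fit was tested on data simulated with normal noise, which lack the many zeros of the members, so that test does not cover them. Positions and hosts came from GENCODE M39 and similar stretches from blastn 2.17.0. Named are members above 0 in all samples, called members whose groups do not overlap, members of the 3 microRNA lists, the 10 largest means, their hosts, and biogenesis genes called or with the largest means, and other names are marked as chosen after values were seen. Other pseudocounts (0.1 and 5), filters, scalings, no trend, a replicate block, leaving out each sample and other limits were tried. The members and lists were chosen with earlier results of these data known.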

Additional observations from a re-analysis of the deposited data

How the results depend on the processing

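The number of members called lower, 5, was also 5 with a pseudocount of 0.1 or 5, both filters, 3 other scalings and no trend. These settings do not bear on the length limit, under which 4 of the 5 fall. It was 3 at an adjusted p under 0.05 and 1 over hairpins of at least 100 bases, and leaving out each sample gave 5 to 8. For members called higher, 0, leaving out each sample gave 0 to 1. The biogenesis genes called higher, 1, and lower, 0, were 3 and 3 at an unadjusted p under 0.05 with no fold limit. The difference in mean log2 level, -1.56, was -2.69 with a pseudocount of 0.1, -0.88 with 5, -1.43 with equal sums, -1.76 with median centring, -0.88 over hairpins of at least 100 bases and -1.45 without Mir6236 and Mir5620, and leaving out each sample gave -1.60 to -1.51. The median log2 fold change of all genes moved by 0.29 with equal sums, -0.07 with quantile normalization and -0.20 with median centring. The 9 members that share all 6 values with another gene were 15 at a tolerance of 0.1%. The limit to hairpins of at least 100 bases and the fit without Mir6236 and Mir5620 were chosen after seeing the data. With the replicate number as a block, 5 members were called lower and 0 higher. The labels state no pairing. The correlations of same-numbered samples were 0.102, 0.22 and 0.0925, which does not settle whether they share a mouse, culture or batch. Without read counts, a value of 0 gives no upper limit, and for hairpins under 81 bases the LPS samples give no comparison.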
